A study of Mus musculus with 6 samples.

Results

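The genes described here mark the path from cortical progenitor to glutamatergic neuron: the vesicular glutamate transporter genes Slc17a6 and Slc17a7 and the transcription factor genes Emx1, Eomes, Tbr1, Bcl11a and Bcl11b. They were chosen by name. Of the 7 genes, 6 were paired with a peak in at least 1 of the 4 deposited gene tables and could be scored, out of 18778 genes in those tables. Tbr1, of a T-box factor in early postmitotic cortical neurons, was in none of these tables and was not scored.

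The chromatin came from mouse cells of strain C57BL/6. The stem cells (NSCs) had been derived from mouse embryonic stem cells, were labelled as passages 25 to 30, day 0 and RedStar negative, and grew in FGF2 and EGF with N2. The neurons were made from them over 11 days, 4 with FGF2, B27 and reduced N2 and 7 in N2B27, and were sorted as RedStar positive. RedStar is a red fluorescent protein that was driven by the Tau promoter, so the sort enriched for neurons in general and did not select for a transmitter type or a cortical layer. H3K4me3 and H3K27me3 were each sequenced in 1 library per cell type, from 1 chromatin preparation each, beside 1 input per cell type. No difference between the cell types therefore has a replicate check and none was tested.

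H3K4me3 is trimethylated by enzymes of the Set1 and MLL families and lies at promoters that are active or ready to be. H3K27me3 is written by Polycomb repressive complex 2 and covers silent developmental genes, often in broad domains. Promoters with both are termed bivalent, but in bulk chromatin the marks may come from different cells. In the developing cortex, Emx1 and Eomes act in progenitors, Tbr1, Bcl11a and Bcl11b in young projection neurons, and the transporters Slc17a7 (VGLUT1) and Slc17a6 (VGLUT2) load glutamate into synaptic vesicles.

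The 4 libraries had 983266 to 3623654 immunoprecipitated reads inside peaks, fewest in neuron H3K4me3. A gene was counted as marked where any peak of the full list lay within 1000 bp of its start site. Read counts outside peaks were not analysed here, so a start site without a peak has an unknown level, not a level of 0. The fold of a peak is the authors' own, of immunoprecipitated over scaled input reads, and each 95% interval covers counting error only. Every peak has a false discovery rate (FDR) of at most 0.001. Start sites of pan-neuronal markers had H3K4me3 at 4 of 7 scored genes in each cell type, those of neural stem cell markers at 6 of 8 in NSCs and 7 of 8 in neurons, those of astrocyte markers at 3 and 2 of 5, and those of GABAergic markers at 3 and 1 of 6. Of the oligodendrocyte markers 2 of 5 were scored, and of the pluripotency markers none of 4. Of the neuronal markers, Tubb3 and Mapt had H3K27me3 in NSCs alone, Dcx had H3K4me3 in neurons alone and Syt1 in NSCs alone. Others went the other way or did not change. Syt1 and Stmn2 had H3K27me3 in both cell types, and Stmn2 and Snap25 had H3K4me3 at the start site in neither. Tubb3, Mapt and Map2 had H3K4me3 in both. Losses and gains are throughout calls of presence and absence. RNA was not measured, so the labels of the cells were compared with chromatin marks alone, and a smaller share of marked cells cannot be told apart from less mark per cell.

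The promoters of these genes differ in CpG content, a feature that was not used to choose them and that promoters with H3K4me3 or H3K27me3 often share. All 6 scored genes matched a RefSeq promoter of build GRCm38.p6, from 250 bases before to 50 after the annotated start. The promoters of Slc17a6, Eomes, Bcl11b and Emx1 are shown because they span the range from the start site that never carried H3K4me3 to the most CpG-rich of the set. Every CpG pair is in capitals. The first 2 and Emx1 lie on the plus strand, at chr7:51621580-51621879, chr9:118477939-118478238 and chr6:85187681-85187980, and Bcl11b lies on the minus strand at chr12:108003365-108003664.
Slc17a6: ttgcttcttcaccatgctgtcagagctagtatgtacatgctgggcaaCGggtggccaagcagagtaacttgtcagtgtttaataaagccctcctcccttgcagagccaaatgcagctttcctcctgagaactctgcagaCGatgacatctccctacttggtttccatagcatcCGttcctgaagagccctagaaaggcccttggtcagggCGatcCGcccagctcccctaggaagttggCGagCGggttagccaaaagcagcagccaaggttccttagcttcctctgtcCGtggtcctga
Eomes: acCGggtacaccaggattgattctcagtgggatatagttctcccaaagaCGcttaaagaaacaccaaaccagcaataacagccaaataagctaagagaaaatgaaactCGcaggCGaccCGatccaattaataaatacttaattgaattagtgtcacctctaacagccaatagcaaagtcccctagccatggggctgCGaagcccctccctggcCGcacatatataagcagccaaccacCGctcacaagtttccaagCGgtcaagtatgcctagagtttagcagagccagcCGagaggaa
Bcl11b: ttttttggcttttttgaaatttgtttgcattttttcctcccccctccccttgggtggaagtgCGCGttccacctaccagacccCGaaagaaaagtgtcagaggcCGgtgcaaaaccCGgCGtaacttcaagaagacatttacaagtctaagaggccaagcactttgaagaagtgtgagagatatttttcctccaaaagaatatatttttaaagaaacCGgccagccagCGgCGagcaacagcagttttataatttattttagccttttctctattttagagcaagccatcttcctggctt
Emx1: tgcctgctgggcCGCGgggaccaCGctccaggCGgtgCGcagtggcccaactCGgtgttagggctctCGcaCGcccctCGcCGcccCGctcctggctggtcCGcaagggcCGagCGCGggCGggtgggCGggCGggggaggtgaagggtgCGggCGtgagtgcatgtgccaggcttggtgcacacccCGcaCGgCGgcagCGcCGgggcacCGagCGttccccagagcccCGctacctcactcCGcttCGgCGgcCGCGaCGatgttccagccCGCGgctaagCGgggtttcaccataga

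The number of CpG pairs was 8 in Slc17a6, 9 in Bcl11b, 10 in Eomes, 13 in Slc17a7, 23 in Bcl11a and 37 in Emx1. Over all 32851 promoters of the table the median was 7 and the upper quartile began at 20, so Bcl11a and Emx1 were CpG-rich and the other 4 lay between. CpG content did not order the genes by their marks: Bcl11b, with 9 pairs, had H3K4me3 in both cell types, and Emx1, with 37, had it in NSCs alone. Slc17a6 has a further RefSeq promoter with 3 CpG pairs. The E-box CANNTG, read on both strands, is the motif bound by neurogenic bHLH factors. It occurred in Slc17a6, Slc17a7, Bcl11a and Emx1, at 1 place in each, and was not found in this window of Eomes and Bcl11b, while 72.3% of all promoters held it. CCAAT, on either strand, occurred in Eomes at 2 places and in Bcl11a at 1, while 37.4% of all promoters held it. The RefSeq starts are on another build than the peaks and their distance from the start sites scored here was not measured.

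In NSCs, 5 of the 6 start sites carried H3K4me3, all but that of Slc17a6, against 70.4% of all scored genes. In neurons 2 did, Bcl11a and Bcl11b, against 61.7%. H3K27me3 lay at 5 of 6 in NSCs, against 19.2%, and again at 5 of 6 in neurons, against 17.9%. Slc17a7, Eomes, Bcl11a and Emx1 had it in both cell types, Bcl11b in NSCs alone and Slc17a6 in neurons alone. All 5 genes with H3K4me3 in NSCs also had H3K27me3 there, a double marking seen at 8.53% of all genes. In neurons only Bcl11a of the 6 carried both, against 4.59%.

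**Figure D1:**
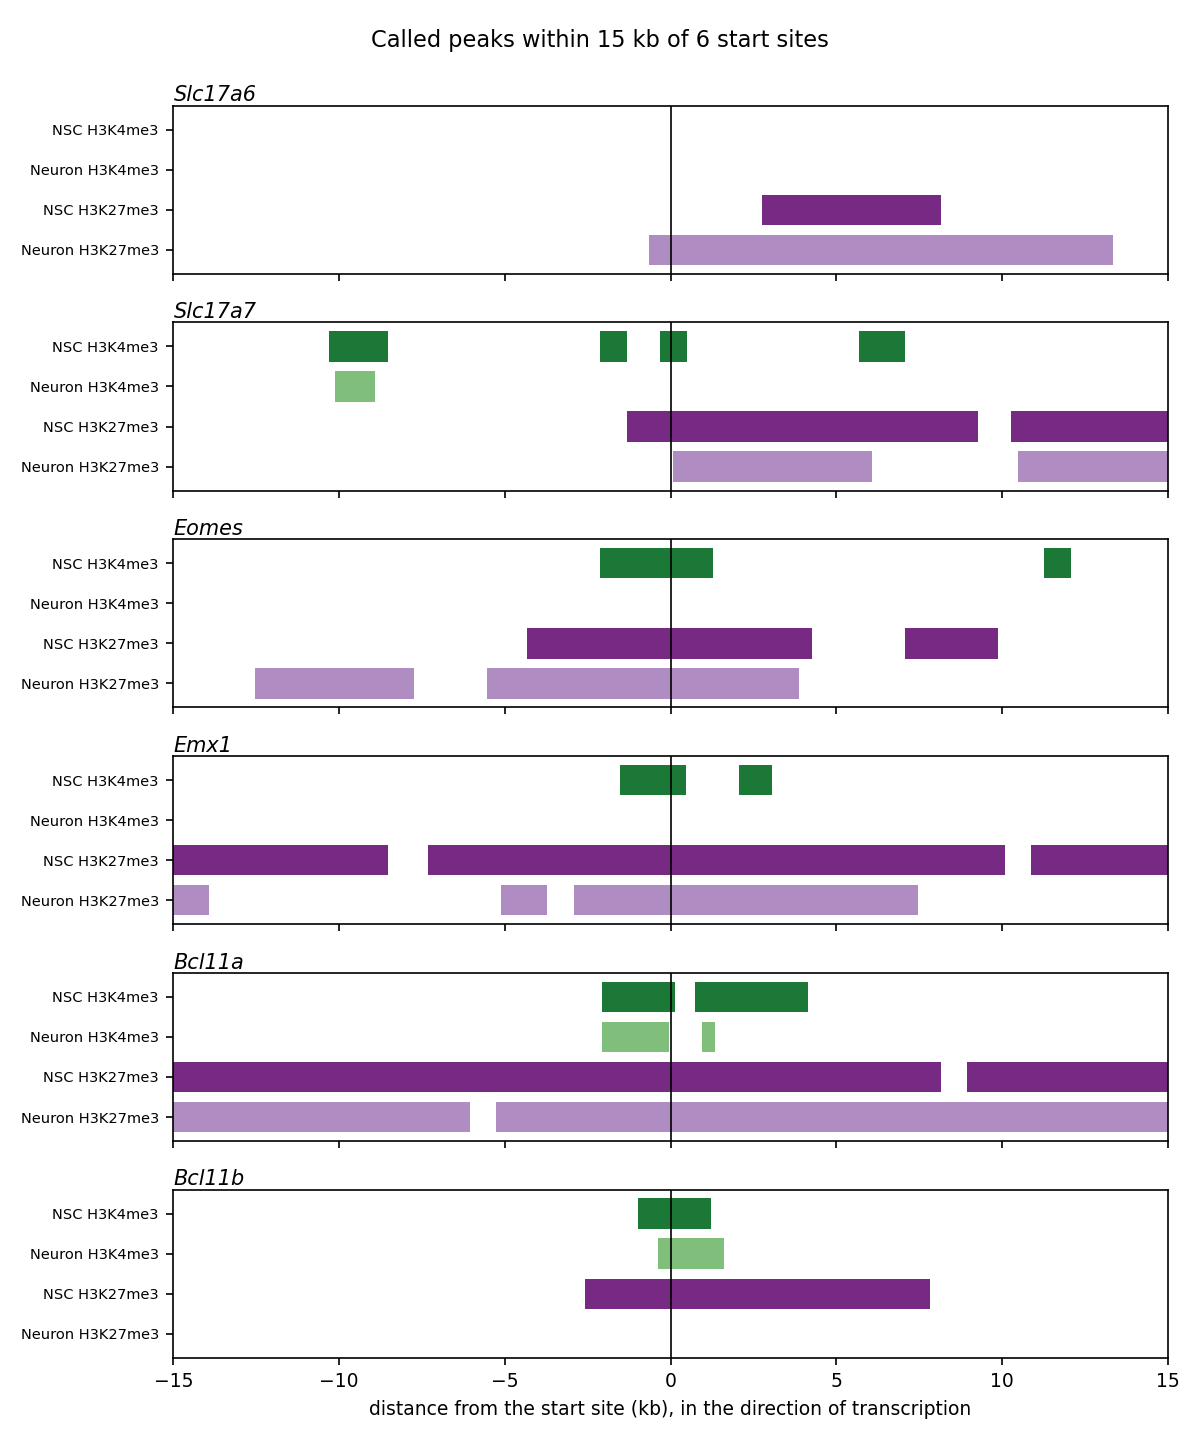
Called peaks of the 4 libraries within 15 kb of each start site, drawn to scale as distance in kb along the direction of transcription, with the start site as a vertical line. Eomes and Emx1 have no neuronal H3K4me3 peak in the window, Bcl11b has no neuronal H3K27me3 peak, and the neuronal H3K27me3 domain of Slc17a6 starts 637 bp before the start site, where the NSC peak starts 2763 bp after it.

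The progenitor genes went from both marks to H3K27me3 alone. Emx1, a homeobox gene of dorsal telencephalic progenitors, lies on chromosome 6 and its start site is at position 85137925 (mm9, as all positions of peaks and genes from here on). Its NSC H3K4me3 peak was 2000 bp wide with 80 immunoprecipitated and 11 input reads, a fold of 7.45 (95% interval 3.95 to 15.5). A smaller NSC peak of 1000 bp, with 35 over 5 reads, began 2075 bp into the gene. In neurons the nearest H3K4me3 peak was 49926 bp away.

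Emx1 kept H3K27me3, in a narrower domain. The NSC domain over the start site was 17.4 kb wide, with 618 over 134 reads and a fold of 6.45 (5.34 to 7.83). The neuronal domain was 10.4 kb wide, with 287 over 58 reads and a fold of 5.2 (3.91 to 7.02). The fold intervals overlapped. H3K27me3 peaks covered 28.0 kb within 15 kb of the start in NSCs and 12.9 kb in neurons. Over the 2687 genes with H3K27me3 in both cell types, the median neuronal width was 0.662 of the NSC width, and for Emx1 it was 0.598.

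Eomes, also known as Tbr2, is the T-box gene that marks intermediate progenitors of the cortex and lies on chromosome 9 with its start at 118387330. Its NSC H3K4me3 peak, 3400 bp wide, held 253 over 34 reads, a fold of 7.62 (5.31 to 11.2). A weaker peak of 800 bp, with 28 over 15 reads, lay 11270 bp downstream. No neuronal H3K4me3 peak lay within 27870 bp of the start site. H3K27me3 spanned the start site in both cell types, with 290 over 81 reads in NSCs and 192 over 65 in neurons. The fold was 5.0 (3.9 to 6.48) in NSCs and 3.1 (2.33 to 4.18) in neurons, and these intervals overlapped. The ratio of the folds was 0.62, and 12.3% of genes with H3K27me3 in both cell types had a lower ratio. A neuronal H3K27me3 peak of 4800 bp upstream, from 12530 to 7731 bp before the start, had no NSC counterpart, and an NSC peak of 2800 bp past the start, from 7070 bp on, had no neuronal one.

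The transporter genes differed from each other. Slc17a7, on chromosome 7 with its start at 52419319, had a short NSC H3K4me3 peak at the start site, 800 bp wide with 44 over 5 reads and a fold of 9.01 (3.58 to 29.1). Further NSC peaks with 45 over 9 and 32 over 7 reads lay 2119 to 1320 bp before and 5681 to 7080 bp after the start. None of these had a neuronal counterpart. The neuronal H3K4me3 peak nearest to it, 8920 bp upstream with 48 over 8 reads, covered the start sites of the neighbours Pih1d1 and Aldh16a1, which carried H3K4me3 in both cell types. In NSCs the peak at these neighbours held 182 over 27 reads, against 44 over 5 at the Slc17a7 start site. Whether a peak as small as that of Slc17a7 would be called in the neuron library was not tested.

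H3K27me3 lay over Slc17a7 in both cell types. The NSC domain of 10.6 kb began before the start site and held 266 over 74 reads, a fold of 5.02 (3.87 to 6.59). The neuronal domain of 6.0 kb began 81 bp after the start site and held 144 over 30, a fold of 5.04 (3.38 to 7.74). H3K27me3 peaks covered 91.8% of the gene in NSCs and 63.2% in neurons.

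Slc17a6, on the same chromosome with its start at 58877437, had no H3K4me3 within 238963 bp in either cell type. Its NSC H3K27me3 peak lay inside the gene, from 2763 to 8162 bp after the start, with 190 over 39 reads and a fold of 6.81 (4.8 to 9.87). The neuronal domain ran from 637 bp before to 13362 bp after the start, 14.0 kb in all, with 363 over 92 reads and a fold of 4.14 (3.29 to 5.27). By the 1000 bp rule this counts as a gain, and 4.4% of genes without the mark in NSCs gained it. The NSC peak lay wholly inside the neuronal domain. The mean was 35.2 immunoprecipitated reads per kb over the 5.4 kb NSC peak and 25.9 over the 14.0 kb neuronal domain. These are raw counts over different spans, from libraries whose totals are lacking. The density on the shared stretch was not compared. Over the whole gene of 49.1 kb, H3K27me3 peaks covered 11.0% in NSCs and 43.1% in neurons.

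The paralogous zinc finger genes Bcl11a (Ctip1) and Bcl11b (Ctip2) were the only members with H3K4me3 in neurons. Bcl11b acts in subcerebral projection neurons of the cortex and also in striatal neurons, which are GABAergic, so its chromatin is not specific to the glutamatergic lineage. At Bcl11b, on chromosome 12 with its start at 109241812 on the minus strand, the H3K4me3 peak was 2200 bp wide with 177 over 14 reads in NSCs and 2000 bp wide with 63 over 12 in neurons. At Bcl11a, on chromosome 11 with its start at 23978056, the peak before the start was 2200 bp wide with 179 over 14 reads in NSCs and 2000 bp wide with 70 over 14 in neurons. The paralogs were thus alike in width and reads within each library.

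The neuronal fold was the lower value at both genes, with overlapping intervals. At Bcl11b the fold was 12.9 (7.52 to 24.2) in NSCs and 5.22 (2.79 to 10.6) in neurons, and at Bcl11a 13.1 (7.6 to 24.4) and 4.97 (2.77 to 9.55). The neuronal fold was 0.403 and 0.379 of the NSC fold. Over the 11424 genes with H3K4me3 in both cell types the median of this ratio was 0.484, with quartiles at 0.37 and 0.64, so both genes lay within the middle range of all genes. A second Bcl11a peak just inside the gene narrowed from 3400 bp with 102 over 26 reads to 400 bp with 18 over 3.

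H3K27me3 separated the paralogs. Bcl11b had an NSC domain of 10.4 kb across its start site with 187 over 77 reads, a fold of 3.39 (2.59 to 4.49), the lowest of the 5 start-site domains in NSCs. In neurons the nearest H3K27me3 peak was 37388 bp away. Bcl11a had the broadest domain of the set, 32.4 kb with 1061 over 240 reads and a fold of 6.18 (5.37 to 7.14), and had a neuronal domain of 27000 bp with 699 over 203 reads and a fold of 3.62 (3.09 to 4.25). These 2 intervals did not overlap. The ratio of the folds was 0.585, and 8.6% of genes with H3K27me3 in both cell types had a lower ratio, against a median of 0.903. Of the 30 kb around the Bcl11a start, 97.3% was covered in each cell type. Its start site shares this stretch with 3 others, of A830031A19Rik and of 2 genes without a symbol, the closest 85 bp away on the opposite strand, so the peaks cannot be assigned to Bcl11a alone.

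**Figure D2:**
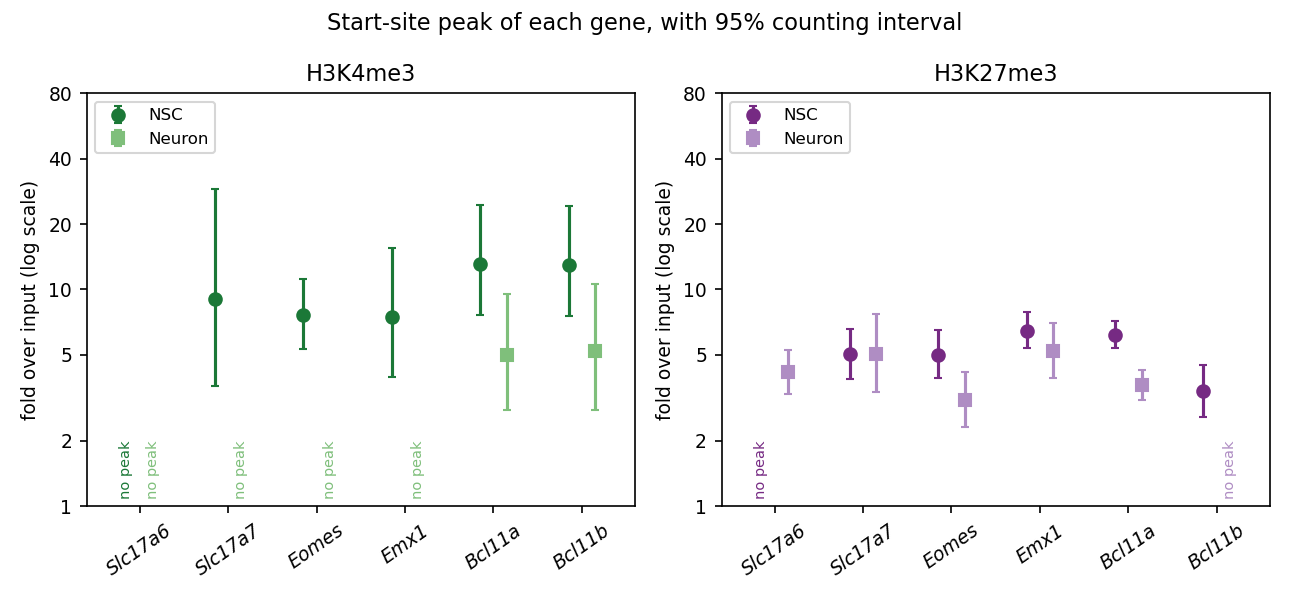
Fold over input of the peak that marks each start site (within 1000 bp), on a log axis, with NSCs as circles and neurons as squares and bars for the exact 95% counting interval from 1 library each. H3K4me3 folds are missing in neurons at all but Bcl11a and Bcl11b, and Bcl11a is the gene whose H3K27me3 intervals, 5.37 to 7.14 and 3.09 to 4.25, do not overlap. Its NSC and neuronal H3K27me3 domains cover different stretches.

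The paralogs also differed along the whole gene. Bcl11b, 93.2 kb long, had 5 H3K27me3 peaks over 24.8 kb in NSCs and 1 over 1.4 kb in neurons. Bcl11a, 96.1 kb long, had 3 over 21.5 kb in NSCs and 5 over 32.7 kb in neurons. H3K4me3 inside Bcl11b went from 5 peaks over 6.61 kb to 3 over 4.01 kb, and inside Bcl11a from 3 over 4.54 kb to 1 over 0.4 kb. Within its bounds Bcl11b held less neuronal H3K27me3 than Bcl11a. The neuronal H3K4me3 lengths cannot be compared in this way. The 2000 bp neuronal peak of Bcl11a ended 57 bp before the gene and is left out, while that of Bcl11b crossed its start and is counted.

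Set beside all genes, the 6 had long H3K27me3 cover. The median length covered by H3K27me3 within 15 kb of the start was 13.4 kb in each cell type, where the median of all genes was 0 and the 90th percentile 15.1 kb in NSCs and 11.9 kb in neurons. Single values in NSCs ran from 5.4 kb at Slc17a6 over 10.4 at Bcl11b, 11.4 at Eomes, 15.3 at Slc17a7 and 28.0 at Emx1 to 29.2 at Bcl11a. In neurons they ran from none at Bcl11b over 10.5 at Slc17a7, 12.9 at Emx1, 14.0 at Slc17a6 and 14.2 at Eomes to 29.2 at Bcl11a. Bcl11a was thus highest in both cell types, while Slc17a6 was lowest in NSCs and Bcl11b in neurons. The H3K4me3 cover had a median of 3.6 kb in NSCs and 0.6 kb in neurons, against 2.4 and 1.4 kb over all genes.

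**Figure D3:**
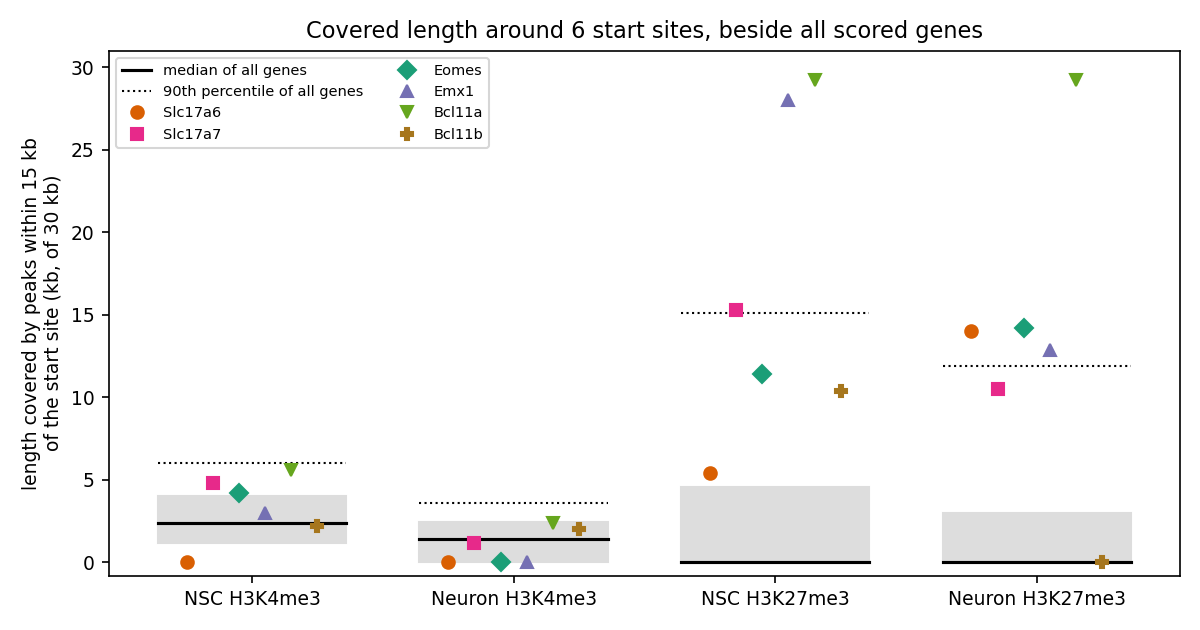
Length covered by peaks within 15 kb of each start site, in kb of 30 kb, for the 4 libraries. Symbols are the 6 genes, grey boxes span the quartiles of all 18778 genes, full lines are their medians and dotted lines their 90th percentiles. For H3K27me3 all 6 genes lie above the grey box in NSCs, and in neurons 5 do while Bcl11b is at 0.

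The study's comparison of stem cells with neurons gave 3 losses of H3K4me3 among 5 marked genes and no gain. Slc17a7, Eomes and Emx1 lost it. The share over all NSC-marked genes was 13.6%, and 2.81% of the unmarked ones had gained the mark. The 5 genes also carried H3K27me3 in NSCs, and of all such double-marked genes 42.2% had lost H3K4me3, so that share, not 13.6%, is the background of genes in the same NSC state. For H3K27me3 there was 1 loss among 5, at Bcl11b, against 25.3% of all genes with the mark.

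The double-marked genes took 3 routes. Slc17a7, Eomes and Emx1 kept H3K27me3 alone, as did 37.3% of the 1601 double-marked genes of the series. Bcl11b kept H3K4me3 alone, as did 20.9%. Bcl11a kept both, as did 36.9%. With 5 genes no more is read from these counts.

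Peak size in NSCs went with the loss. All genes with NSC H3K4me3 were put into 5 classes by the reads in the NSC peak, a division made after the data were seen. Slc17a7 and Emx1 were in the lowest class, 14 to 128 reads, of which 56.0% had no neuronal peak. Bcl11a and Bcl11b were in the next, 129 to 198 reads, of which 7.48% had none. Eomes was in the middle class, 199 to 262 reads, where 52 of 2647 genes, 1.96%, had none, and among the 165 of them with H3K27me3 in NSCs 7, or 4.24%, had none. When classes were made by the fold in place of the reads, Eomes and Emx1 were in a class with 10.6% lost, Slc17a7 in a class with 5.97% lost and Bcl11a and Bcl11b in the class of highest folds, with 6.04% lost. The neuron H3K4me3 library had fewer reads in peaks than the NSC library, 983266 against 3623654, and the part of library strength in the losses at Slc17a7, Eomes and Emx1 was not tested. In NSCs the Eomes peak held more reads than those of Bcl11a and Bcl11b, 253 against 179 and 177, but had a lower fold, 7.62 against 13.1 and 12.9, and fewer reads per kb, 74.4 against 81.4 and 80.5.

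**Figure D4:**
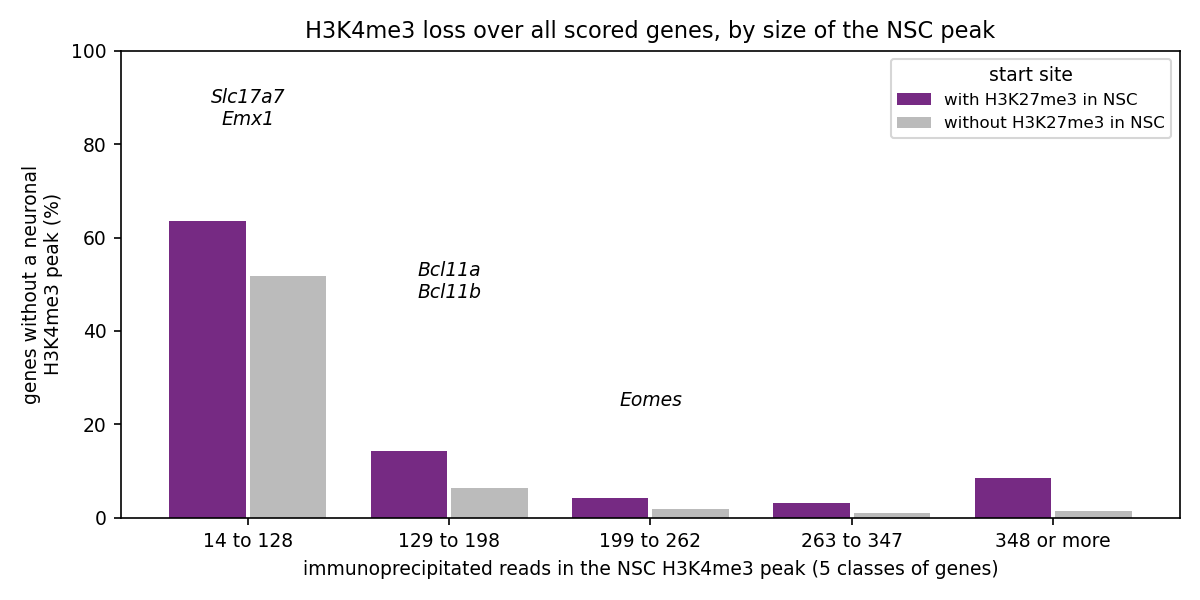
Share of all scored genes with an NSC H3K4me3 peak that had no neuronal one, in %, for 5 classes of the NSC peak's reads, split by H3K27me3 in NSCs. Gene names stand over their class at an arbitrary height: Eomes lost the mark in a class where 4.24% of genes with H3K27me3 did so, Slc17a7 and Emx1 in one where 63.6% did.

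The deposited gene tables, which name 1 peak per gene, gave another picture at some members. By these tables Slc17a7, Eomes, Emx1 and Bcl11b had lost H3K4me3, 4 of 5, against 18.2% of all genes they mark in NSCs. The share among double-marked genes was not computed for the tables. Slc17a6, Bcl11a and Emx1 had gained H3K27me3, against 1.92% of all genes that the tables leave unmarked in NSCs. For Bcl11b the neuronal table names a peak 76213 bp from the start although the list holds one across it. For Emx1 and Bcl11a, the NSC table names H3K27me3 peaks 8526 and 8944 bp away although a domain of 17.4 and 32.4 kb covers the start. The losses at Slc17a7, Eomes and Emx1, the H3K27me3 loss at Bcl11b and the gain at Slc17a6 appeared in both. The tables draw on the same peaks as the lists, so they are no separate check. With a window of 5000 bp the gain at Slc17a6 was absent.

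A wider list of 48 cortical glutamatergic genes, among them regulators, layer markers, glutamate receptors and glutamate metabolism, had 44 scored members. Of these, 36 had H3K4me3 in NSCs (81.8%) and 30 in neurons (68.2%). For H3K27me3 the counts were 15 (34.1%) and 12 (27.3%). Of the 36, 8 had lost H3K4me3 (22.2%), against 13.6% of all NSC-marked genes and 42.2% of all double-marked ones. Of the 13 with both marks in NSCs, 5 kept H3K27me3 alone, against 37.3% of all double-marked genes. Where only peaks with FDR under 1e-20 were kept, 16 of 34 marked genes had lost H3K4me3. The share over all genes at that limit was not computed, so the 16 cannot be set against 13.6%. Among the 8 losses by the full lists were the proneural factor genes Neurog1 and Neurod2, the nuclear receptor gene Nr2f2 and the nuclear factor gene Nfib. The matrix protein gene Reln, the glutamate uptake gene Slc1a1 and the NMDA receptor gene Grin1 were also among them. The NSC peaks of these named genes held 22 to 100 reads, within the lowest of the 5 classes. At Nr2f2 the NSC peak lay 822 bp and a neuronal one 4222 bp from the start, so it was no loss with a window of 5000 bp. Neurog1, Neurod2, Reln and Grin1 kept H3K27me3, as Slc17a7, Eomes and Emx1 did. Pax6, of a radial glial factor, and the synaptic kinase gene Camk2a had gained H3K4me3 by the 1000 bp rule, 2 of 8 unmarked genes. NSC peaks lay 5947 and 2873 bp from these starts, so neither counted as a gain where absence required no peak within 10 kb.

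H3K27me3 was lost at 4 of 15 genes (26.7%), Lhx2, Insm1, Cux2 and Camk2a, against 25.3% of all genes with the mark. It was gained at 1 of 29 (3.45%), Pou3f1, against 4.4%. Both shares were near the background. At Lhx2, of a LIM homeodomain factor, the NSC domain was 3800 bp wide with 80 over 29 reads and the nearest neuronal one lay 50999 bp away, so that it too had H3K27me3 in NSCs alone. The NSC peak lay 799 bp from the start, near the 1000 bp limit. At Insm1, a zinc finger gene of newborn neurons, and Cux2, an upper-layer homeobox gene, a neuronal peak lay 1353 and 1889 bp away, just outside the 1000 bp limit. The genes with both marks in both cell types, as at Bcl11a, were Neurog2, Bhlhe22, Satb1, Foxp2 and Grin2b.

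The GABAergic list, of the other main transmitter lineage of the forebrain, had 22 scored genes. In NSCs 12 had H3K4me3 (54.5%) and in neurons 7 (31.8%). For H3K27me3 the counts were 14 (63.6%) and 15 (68.2%). Of the 12, 5 had lost H3K4me3 (41.7%), against 13.6% of all NSC-marked genes. However, 6 of the 12 carried both marks in NSCs, a state in which 42.2% of all genes lost H3K4me3. The 5 losses were Dlx1, Dlx6, Lhx6, Lhx8 and Isl1, all homeobox genes. The last 4 kept H3K27me3 from the stem cells, and Dlx1 gained it. Pvalb lost it by the 1000 bp rule only narrowly, with an NSC peak 831 bp and a neuronal one 1831 bp from its start. Of the 6 GABAergic genes with both marks in NSCs, 4 kept H3K27me3 alone, against 37.3% of all double-marked genes. These 4, Dlx6, Lhx6, Lhx8 and Isl1, thus had the same states as Emx1 and Eomes. A difference between the lists was not tested.

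**Figure D5:**
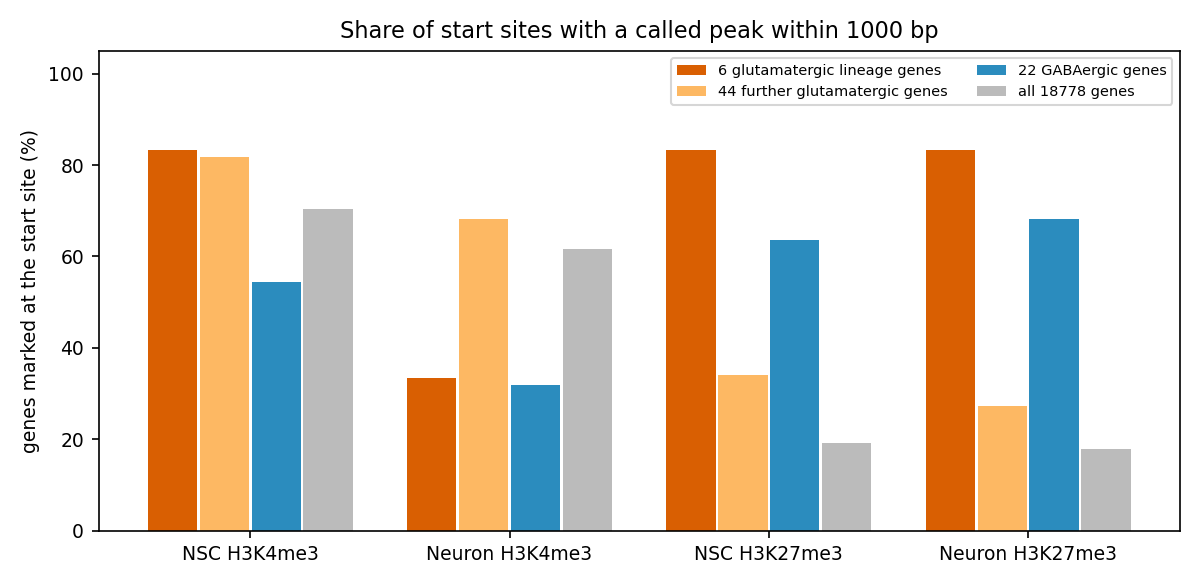
Share of start sites with a peak within 1000 bp, in %, for the 4 libraries. Bars give the 6 genes, the 44 further glutamatergic genes, the 22 GABAergic genes and all 18778 scored genes: the 6 are at 83.3% for H3K27me3 in both cell types, the further glutamatergic genes at 34.1% and 27.3%.

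Genes with the most similar pattern were ranked by the distance between log10 covered lengths within 15 kb over the 4 libraries. For Eomes these were Zdhhc22, Gli1, Ntf5, Barx1 and Gprc5c, at distances of 0.092 to 0.16, all with H3K4me3 cover in NSCs alone and H3K27me3 in both. The genes ranked for Emx1 were Gpr45, Sp6, Gm9924, Slc30a3 and Olfr1417, and for Slc17a7 Ptpru, Mecr, Arhgap9, Csgalnact2 and Gdf7. The genes near Slc17a6 included Krt42, Tmprss13, Glrp1 and the glutamate receptor gene Grm7, and Bcl11b to Gfra1, Calu, 2300009A05Rik, Snap91 and C030034I22Rik. Neighbouring genes can share a window, and the likeness rests on 4 values per gene.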

How the data were processed

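Chromatin was fixed in 1% formaldehyde and sheared to about 300 bp, per the labels' protocols. The build mm9 and the tools SICER, Bowtie, SAMtools and FastQC are listed in the submitters' processing notes. Their settings, and versions, were not given in the sources used here. The authors deposited, per antibody and cell type, SICER peaks with matched input reads and a table that pairs genes with 1 peak each. Per peak the deposited values are counts of immunoprecipitated and input reads, a p-value and FDR, and a fold over input scaled by a constant per library. The deposited FDR was under 0.001 in all 4 lists. The gene tables hold peaks with FDR under 1e-20, except that of neuron H3K4me3. The deposited fold is the authors' own and describes single peaks.

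Start sites are gene starts, or ends on the minus strand, in the tables. The 18778 genes in any table, 4178 of them without a symbol, form the background, which leans towards genes near peaks. A loss is a mark present in NSCs only, a gain a mark present in neurons only. Where several peaks lay within 1000 bp, values are of the nearest. Exact (Clopper-Pearson) 95% intervals of the read ratio cover counting error only, as library totals and replicates are lacking. All members are named. Of the wider lists, the named genes are those that lost or gained a mark or carried both marks in both cell types. A few genes that these rules select are not reported here. Like genes are the 5 nearest by log10(covered bp + 200) among genes with a symbol, for members that lost or gained a mark. Members, lists and rules were chosen with earlier results of these data known. 1 listed symbol in each of the wider and neuronal lists was matched through an older symbol of a RefSeq table of GRCm38.p6. Distances and covered lengths were checked against a brute-force search and planted peaks. Alternatives were the window, the FDR limit, equal numbers of peaks, the gene tables, a 10 kb limit for absence and other widths around the start. The tools were scipy 1.17.1, matplotlib 3.10.9, numpy 2.4.6, pandas 2.3.3 and Python 3.11.15.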

Additional observations from a re-analysis of the deposited data

How the results depend on the processing

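No paired analysis was possible because each cell type and antibody had 1 library and no comparison was tested. H3K4me3 losses of Eomes and Emx1 and the H3K27me3 loss of Bcl11b held under all 7 alternatives to the 1000 bp rule, and no member gained H3K4me3 under any. Slc17a7 dropped out of the H3K4me3 losses where absence required no peak within 10 kb, since the peak of its neighbours lies 8920 bp away. Slc17a6 was no gain of H3K27me3, leaving 0 members, with a window of 5000 bp or with absence within 10 kb. Where a peak had to touch the start site, 1 member had neuronal H3K4me3 (Bcl11b), as Bcl11a's peak ends 57 bp short, 2 had lost H3K27me3 (Bcl11b and Slc17a7, 81 bp short), and the wider list had 0 gains of H3K27me3. The gene tables gave 1 member with neuronal H3K4me3, 2 with NSC H3K27me3 and 3 gains of H3K27me3, and for the wider list 15 genes with neuronal H3K4me3, 7 with NSC and 3 with neuronal H3K27me3. In the wider list a window of 2500 bp and one of 5000 bp each gave 2 losses and 2 gains of H3K27me3. An FDR under 1e-20 left 19 of its genes with neuronal H3K4me3, 16 losses and 1 gain of that mark and 0 gains of H3K27me3, and absence within 10 kb gave 0 gains of H3K4me3 and 2 losses of H3K27me3. The cause of these shifts was not tested beyond the distances given.

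The members' median share of the window covered was 12.0% in NSCs and 2.0% in neurons for H3K4me3, then 44.5% and 44.8% for H3K27me3. In the same order it was 26.0%, 0%, 80.9% and 72.5% with 5 kb on each side. With 10 kb on each side the H3K27me3 shares were 55.0% and 55.8%, and with 25 kb NSC H3K4me3 had 7.2% and neuron H3K27me3 35.5%.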

Other observations

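Fezf2 and Emx2, of the wider list, were picked after their values were seen. Fezf2, a zinc finger gene of subcerebral projection neurons, had an NSC H3K27me3 domain of 99800 bp with 3238 over 826 reads, and in neurons the domain at its start was 15400 bp wide with 418 over 108 reads. Within 15 kb of the start, H3K27me3 peaks covered 30.0 kb in NSCs and 25.0 kb in neurons, so further neuronal peaks adjoined that domain. It had no H3K4me3 peak within 60743 bp in either cell type. In contrast, the dorsal forebrain gene Emx2, the paralog of Emx1, carried H3K4me3 in both cell types, with 339 over 24 reads in NSCs and 123 over 20 in neurons, and no H3K27me3 within 45220 bp in either.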
